A study of Mus musculus with 6 samples.

Results

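Cadherins and protocadherins are the calcium-dependent adhesion proteins of the cadherin superfamily, and 94 of the 20367 genes measured belonged to them. Members were all genes whose symbol is Cdh followed by a number, or begins with Pcdh. They comprised 23 Cdh genes, 12 protocadherins outside the gene clusters (Pcdh plus a number), and 59 clustered protocadherins, of which 15 were alpha, 22 beta and 22 gamma. The Cdh genes were not all classical cadherins. Cdh1, Cdh2, Cdh3, Cdh4 and Cdh15 encode type I and 13 others type II classical cadherins, whereas Cdh13, Cdh16, Cdh17, Cdh23 and Cdh26 encode proteins of other structure.

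RNA was sequenced from sorted neurons of the embryonic cortex of C57BL/6J mice. All embryos came from a cross of heterozygous Tbr2(Eomes)-GFP with homozygous DCX-mRFP mice and carried both reporters, GFP for a transcription factor of intermediate progenitors and mRFP for a microtubule protein of young neurons. Sorting separated double-coloured neurons, taken to derive from intermediate progenitor cells (IPN), from neurons that were red only (non-IPN). There was 1 library for each population at each of 3 embryonic days (E), 13.5, 15.5 and 16.5. At E15.5 a library was made from 1000000 cells without amplification, and at E13.5 and E16.5 from 10000 cells with amplification of the transcriptome. Cell number and amplification therefore cannot be told apart from age at E15.5, and no E15.5 level was tested against another age. The sort defines the populations by reporter colour alone, and the number of embryos behind each library was not stated.

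Classical cadherins bind the same or a similar cadherin on the neighbouring cell and are tied to the actin skeleton by catenins. In the developing cortex, N-cadherin (Cdh2) holds radial glia together and guides migrating neurons along them, and type II cadherins are known for regional patterns. Non-clustered protocadherins mediate weaker adhesion and are grouped into delta-1 and delta-2 forms by their cytoplasmic tails, the latter of which recruit the WAVE actin regulator. In the alpha and gamma clusters each isoform joins its own first exon to constant exons shared by the cluster, whereas beta genes are single exons. Combinations of isoforms give each neuron a surface identity used in self-avoidance.

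Levels are given as CPM, meaning deposited units of a gene in each 1000000 units of that library. Column totals ran from 12583677 to 32538995. The deposited values had been scaled to near-equal upper quartiles, 438 to 444 in the 4 amplified libraries and 1501 to 1502 at E15.5, so the true depth is unknown. Tests were run with limma on log2(value + 1), and a gene was called at a Benjamini-Hochberg adjusted p below 0.05 over all 19561 genes above 0 in at least 1 library. With 1 library per population and age, the 3 pairs were the only replicates of the population difference. Markers followed the sort only in part. The summed projection neuron markers were 3181, 4504 and 4963 CPM in IPN at the 3 ages against 417, 396 and 2480 CPM in non-IPN. Of these 8 markers, 6 were called higher in IPN, beside 0.982% of all genes. On the CPM scale 7, 8 and 7 of them were higher in IPN in the 3 pairs. All 8 interneuron markers were called lower in IPN (17.5 to 57.7 against 1074 to 4174 CPM). So were all 9 markers of microglia (1.78 to 4.78 against 405 to 886 CPM), beside 2.41% of all genes. Intermediate progenitor markers summed to 1562, 350 and 818 CPM in IPN in order of age, against 1689, 191 and 577 CPM in non-IPN. Of these 4 markers, 2, 3 and 2 were higher in IPN in the 3 pairs on the CPM scale. Eomes, the gene of the GFP reporter, measured 437, 102 and 98.4 CPM in IPN and 214, 72.5 and 72.0 CPM in non-IPN. Red blood cell markers summed to 36556 CPM in non-IPN at E13.5 and to at most 155 CPM in the other libraries. In these bulk libraries, fewer cells of a type and less RNA per cell cannot be told apart.

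**Figure D1:**
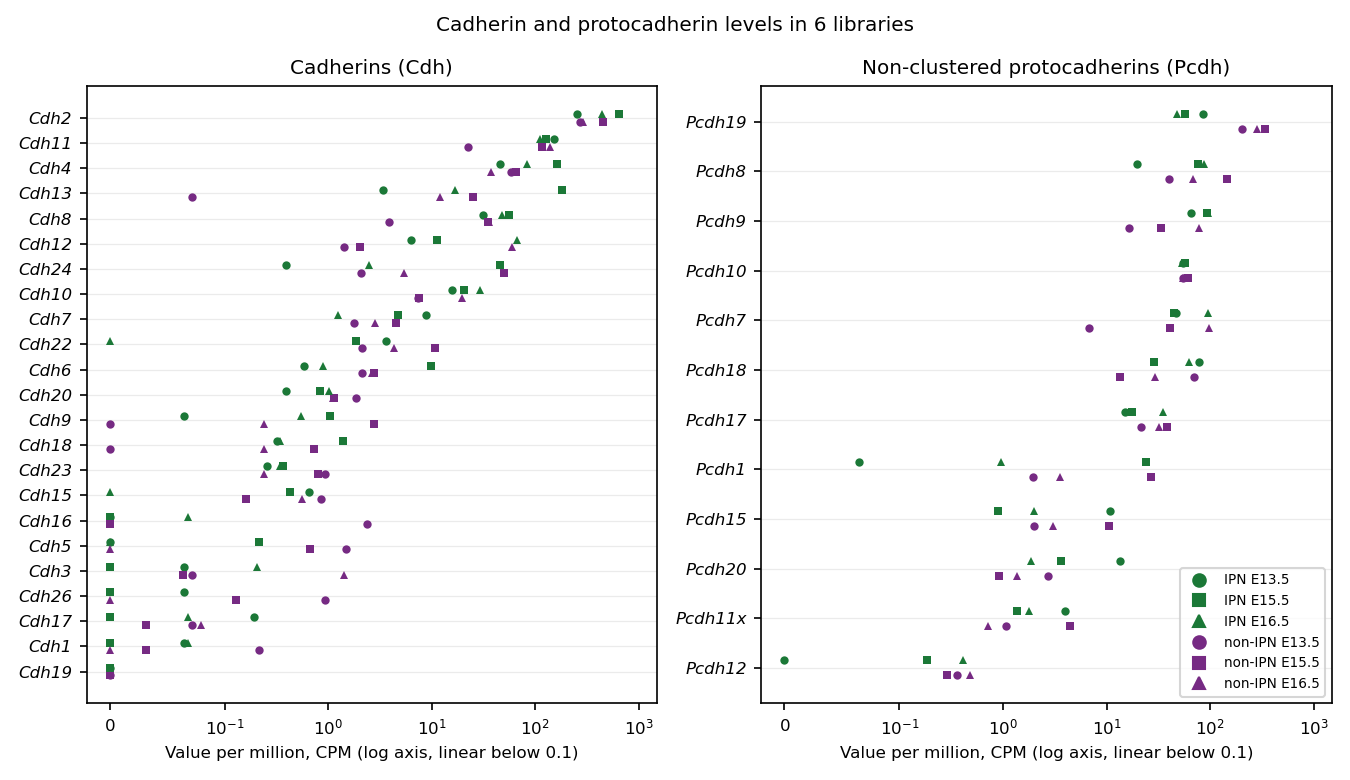
CPM (log axis, linear below 0.1) of the 23 Cdh genes and the 12 non-clustered protocadherins, 1 point per library, with colour for the population and symbol for the age, genes ordered by mean CPM. Pcdh19 lay at 48.4 to 85.8 CPM in IPN and at 204 to 338 CPM in non-IPN, while most of the lower genes scattered around 1 CPM or less.

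Few members were called between the populations. Of the 93 members tested, Pcdh9 alone was called higher in IPN, where 0.982% of all genes were, and Pcdh19 alone was called lower in IPN, where 2.41% of all genes were. Both counts are close to the background. The median fitted log2 difference (IPN minus non-IPN) was −0.17 over the 22 Cdh genes tested, −0.13 over the 12 non-clustered protocadherins, 0.47 over the alpha, 0.08 over the beta and 0.39 over the gamma genes, beside −0.02 over all genes tested. The Cdh median was 0.03 with median-of-ratios scaling and the beta median −0.14 with column-total scaling, so the sign of these 2 depended on the setting. On the deposited scale 30 members were higher in IPN in all 3 pairs, 19 of them gamma genes, and 6 were lower in all 3, beside 14.2% and 15.2% of all genes tested. On the CPM scale 8 members were higher in all 3 pairs, none of them clustered, and 10 were lower, beside 9.64% and 20.8% of all genes.

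Among the type I cadherins, Cdh2 had the highest level per length at E15.5 of all Cdh genes and non-clustered protocadherins. It stood at 80.0 CPM per kilobase of exon in IPN and 55.5 in non-IPN, with exon lengths from GENCODE. Cdh2 measured 254, 645 and 443 CPM in IPN at the 3 ages in order, against 269, 448 and 289 CPM in non-IPN. IPN were higher at the 2 later ages, and at E13.5 the sign depended on the scale (3926 against 3768 as deposited). The fitted difference was 0.49 ± 0.21 (SE, log2) and was not called (adjusted p = 0.348). Cdh4 (R-cadherin), which can bind Cdh2, measured 45.5, 161 and 83.8 CPM in IPN and 58.8, 65.3 and 37.2 CPM in non-IPN. It was thus lower in IPN in the E13.5 pair and higher in the later pairs, with ratios of 2.46 and 2.25 on the CPM scale. Its fitted difference of 0.84 ± 0.33 (SE, log2) was not called over the 3 pairs (adjusted p = 0.278), but was called without the E13.5 pair (1.37, adjusted p = 0.0189). Cdh1, the epithelial E-cadherin, Cdh3 (P-cadherin) and Cdh15 (M-cadherin of muscle) stayed at or below 1.43 CPM in all 6 libraries.

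Type II cadherins split into a few well-measured genes and a majority near 0. Cdh8, Cdh10, Cdh11 and Cdh12 were the type II genes above 10 CPM in at least 1 amplified IPN library. Cdh10 measured 15.6, 20.7 and 29.5 CPM in IPN and 7.44, 7.56 and 19.6 CPM in non-IPN. It was higher in IPN in each pair, by 1.17 ± 0.38 (SE, log2) in the fit, and was not called (adjusted p = 0.165). Cdh24 measured 0.388, 46.1 and 2.46 CPM in IPN and 2.07, 50.2 and 5.40 CPM in non-IPN. Its 2 unamplified libraries stood far above the 4 amplified ones, a contrast that cannot be told apart from amplification. Cdh7, Cdh22, Cdh6 and Cdh20 lay between 0 and 10.7 CPM over all libraries. Cdh22 measured 3.62, 1.84 and 0 CPM in IPN and 2.15, 10.7 and 4.29 CPM in non-IPN. Cdh7 measured 8.85, 4.70 and 1.23 CPM in IPN and 1.79, 4.5 and 2.86 CPM in non-IPN. For both genes the higher population changed from IPN at E13.5 to non-IPN at E16.5. Cdh6 measured 0.582, 9.80 and 0.889 CPM in IPN and 2.15, 2.74 and 2.62 CPM in non-IPN. Cdh20 measured 0.388, 0.830 and 1.03 CPM in IPN and 1.86, 1.15 and 1.11 CPM in non-IPN, so both were higher in IPN in at most 1 pair on the CPM scale. Cdh5 (VE-cadherin of blood vessels) did not exceed 1.5 CPM, beside endothelial markers that summed to at most 4.62 CPM. Cdh19 was listed at 0 in all 6 libraries and was not tested.

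Cdh13 (T-cadherin), which lacks a cytoplasmic tail and is anchored to the membrane by a lipid, was the one non-classical Cdh gene with levels above 3 CPM. It measured 3.36, 182 and 16.9 CPM in IPN and 0.0715, 24.9 and 12.1 CPM in non-IPN. IPN were higher in every pair, although the E13.5 value in non-IPN was a single unit on the deposited scale. The fitted difference was 2.78 ± 0.69 (SE, log2) with an adjusted p of 0.0593 and was not called, whereas without the E16.5 pair it was called (adjusted p = 0.0181). Cdh16, Cdh17, Cdh23 and Cdh26 stayed at or below 2.36 CPM, and the highest of these values was Cdh16 (kidney cadherin) in non-IPN at E13.5.

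Protocadherins outside the clusters held both population calls. Pcdh19, a delta-2 protocadherin encoded on the X chromosome and mutated in an epilepsy, measured 85.8, 57.1 and 48.4 CPM in IPN in order of age. In non-IPN it measured 204, 338 and 282 CPM. The populations did not overlap, and IPN held 0.421, 0.169 and 0.172 of the non-IPN level in the 3 pairs. The fitted log2 difference was −1.98 ± 0.28 (SE, adjusted p = 0.0036). Per kilobase of exon at E15.5, Pcdh19 ranked second after Cdh2 among Cdh genes and non-clustered protocadherins in non-IPN (32.3 CPM per kilobase) and ninth in IPN (5.46). The call was lost without the E15.5 pair, with a fitted difference of −1.71, a setting in which 54 genes in all were called, and under 3 settings in which no gene at all was called. Interneuron and microglial markers were lower in the same libraries as Pcdh19, as given above, and their part in its difference was not tested.

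Pcdh9, a delta-1 protocadherin of neurons, went the other way. It measured 64.8, 93.1 and 95.8 CPM in IPN against 16.4, 33.3 and 78.8 CPM in non-IPN. IPN were higher in each pair, but the E16.5 non-IPN level exceeded the E13.5 IPN level, so the groups overlapped. The fitted log2 difference was 1.38 ± 0.32 (SE, adjusted p = 0.0418). It was called without the E16.5 pair (1.83, adjusted p = 0.0214) and under none of the other 9 alternatives, each of which kept its direction. Projection neuron markers were higher in the same libraries and their part was not tested.

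The 250 bases before the RefSeq start of these 2 genes are shown because they are the members called between populations, one in each direction. They lie on the minus strand of GRCm38.p6 at chrX:133688994-133689243 for Pcdh19 and chr14:93890670-93890919 for Pcdh9 (1 of 2 starts listed), and are written 5′ to 3′. Capitals mark a match to any of 4 motifs searched on both strands, none of which is part of another: TAATTA (homeodomain core), CAGATG and CAGCTG (E-boxes) and CCGCCC (GC box).
Pcdh19: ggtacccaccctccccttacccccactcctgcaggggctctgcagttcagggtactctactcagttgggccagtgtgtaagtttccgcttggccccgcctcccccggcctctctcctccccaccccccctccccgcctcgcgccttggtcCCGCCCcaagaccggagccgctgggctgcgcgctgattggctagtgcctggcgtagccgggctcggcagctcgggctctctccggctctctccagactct
Pcdh9: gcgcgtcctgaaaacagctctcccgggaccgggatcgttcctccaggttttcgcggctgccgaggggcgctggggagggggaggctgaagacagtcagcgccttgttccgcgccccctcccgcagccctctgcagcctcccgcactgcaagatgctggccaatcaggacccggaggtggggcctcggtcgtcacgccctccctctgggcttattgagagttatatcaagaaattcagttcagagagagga
Pcdh19 held 1 GC box, 100 bases before the start, and Pcdh9 held none of the 4 motifs. The 50 bases after the RefSeq start were found unbroken in a GENCODE M21 transcript of Pcdh9, but in none of Pcdh19. CCGCCC or its complement occurred in 32.7% of 32851 promoter windows of the same length in the RefSeq table and in 9 of the 25 windows available for 22 members. TAATTA occurred in 4.84% of all windows and in 1 member window, CAGATG in 14.4% and 2, and CAGCTG in 13% and 2. A match describes letters in this window only.

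The other non-clustered protocadherins showed no called population difference. Pcdh18 (delta-2) measured 78.7, 28.9 and 62.8 CPM in IPN and 69.5, 13.4 and 29.5 CPM in non-IPN. It was higher in IPN in each pair, by 0.93 ± 0.29 (SE, log2), and was not called (adjusted p = 0.149). Pcdh10 (delta-2), known from striatal and cortical axons, had nearly even levels. It measured 54.6, 57.8 and 54.0 CPM in IPN and 55.3, 61.8 and 54.7 CPM in non-IPN. Its 6 values spanned 54.0 to 61.8 CPM across both populations and all ages. Pcdh8 (delta-2), which in neurons controls the uptake of N-cadherin, measured 19.7, 77.3 and 87.9 CPM in IPN and 40.3, 145 and 68.3 CPM in non-IPN. It was lower in IPN at the first 2 ages and higher at E16.5. Pcdh17 (delta-2) measured 15.1, 17.7 and 35.2 CPM in IPN and 21.4, 38.7 and 31.9 CPM in non-IPN, the same order as Pcdh8. Pcdh1 (delta-1) measured 0.0646, 23.8 and 0.958 CPM in IPN and 1.93, 26.8 and 3.58 CPM in non-IPN. It was lower in IPN in each pair, and its unamplified libraries were the highest in both populations. Pcdh20 measured 13.6, 3.66 and 1.85 CPM in IPN and 2.72, 0.925 and 1.35 CPM in non-IPN, higher in IPN in each pair. Pcdh15, a protein of hair cell tip links, measured 10.9, 0.891 and 1.98 CPM in IPN and 2.00, 10.6 and 3.02 CPM in non-IPN. Pcdh11x (delta-1) measured 3.94, 1.35 and 1.78 CPM in IPN and 1.07, 4.4 and 0.715 CPM in non-IPN, so that for both genes the direction was not the same in the 3 pairs. Pcdh12, known from endothelium, stayed at or below 0.477 CPM.

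The size of the population difference moved with age for 3 members. In a fit with embryonic day as a number, the IPN minus non-IPN difference fell with day for Cdh11, Pcdh7 and Cdh8, 3 of 93 members beside 0.68% of all genes, and rose for none, beside 0.624% of all genes. Cdh11, a type II cadherin, measured 153, 128 and 112 CPM in IPN at the 3 ages, against 22.6, 116 and 140 CPM in non-IPN. Pcdh7 (delta-1, which binds the phosphatase PP1) measured 47.2, 44.7 and 94.5 CPM in IPN, against 6.72, 41.2 and 97.3 CPM in non-IPN. Cdh8, a type II cadherin with regional expression in cortex, measured 31.5, 55.7 and 48.2 CPM in IPN, against 3.86, 35.1 and 35.8 CPM in non-IPN. In each gene the non-IPN library of E13.5 was the lowest of the 6. The IPN to non-IPN ratio in that pair was 6.78 for Cdh11, 7.02 for Pcdh7 and 8.17 for Cdh8 on the CPM scale. At E16.5 these ratios were 0.799, 0.972 and 1.35, and that of Pcdh7 was above 1 as deposited (1382 against 1224). The change in log2 difference per day was −1.05 ± 0.17 (SE, adjusted p = 0.00934) for Cdh11, −0.99 ± 0.19 (adjusted p = 0.0225) for Pcdh7 and −0.89 ± 0.21 (adjusted p = 0.0472) for Cdh8.

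This fit left 1 residual degree of freedom, so no pair could be left out, and the unamplified pair sat at the middle age. The Cdh8 call was lost with a pseudocount of 4 and with a minimum mean of 10 CPM. Markers moved in the same libraries. Red blood cell markers made up 36556 CPM of the E13.5 non-IPN library, radial glia markers summed to 4197 CPM there against 1177 CPM in IPN, and projection neuron markers in non-IPN went from 417 CPM at E13.5 to 2480 CPM at E16.5. The 6 pan-neuronal markers summed to 4210, 7749 and 5639 CPM in IPN in order of age. In non-IPN the sums were 1926, 8704 and 6645 CPM, lower than in IPN at E13.5 alone. All 6 had a population difference that decreased per day at an unadjusted p below 0.05 in limma, and none was called. What part any of these markers had in the differences of the 3 members was not tested. Among the members that were not called, Cdh22 changed by −2.14 ± 0.51 (SE, adjusted p = 0.0523) log2 units per day and Cdh13 by −1.28 ± 0.32 (adjusted p = 0.0576). Cdh16 changed the other way, by 2.10 ± 0.50 (adjusted p = 0.0532), and was called with a pseudocount of 4 and under both other scalings. Its values were 0, 0 and 0.0684 CPM in IPN and 2.36, 0 and 0 CPM in non-IPN, so the change rests on the E13.5 library of non-IPN. Cdh4 changed by 0.57 ± 0.17 (adjusted p = 0.101) and was called under both other scalings.

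**Figure D2:**
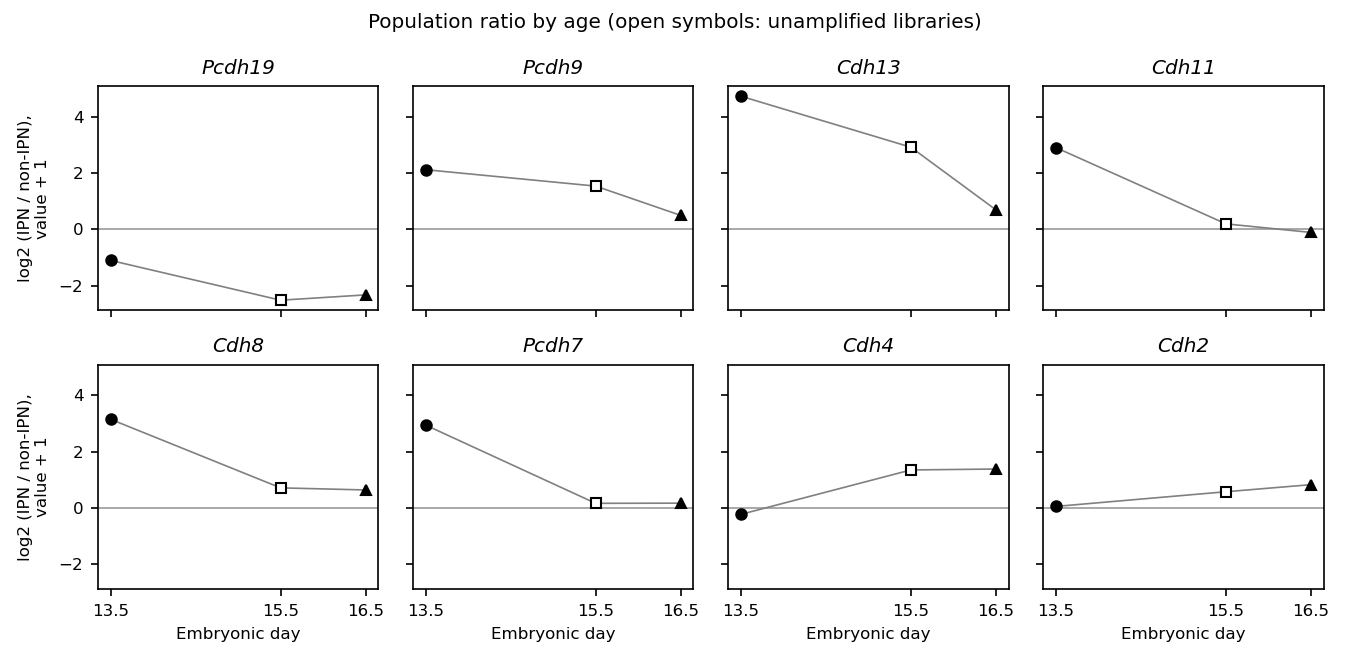
Log2 ratio of IPN to non-IPN (deposited value + 1) in each pair against embryonic day for 8 members, with open symbols for the unamplified E15.5 pair. The Pcdh19 points lie below 0 at all ages, those of Cdh11, Pcdh7 and Cdh8 are highest at E13.5, and those of Cdh4 and Cdh2 are lowest there.

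The promoter windows of Cdh8 and Pcdh7 are shown because these members shared that pattern. They lie at chr8:99416472-99416721 (minus strand) and chr5:57717831-57718080 (plus strand) of GRCm38.p6, with the same motifs in capitals.
Cdh8: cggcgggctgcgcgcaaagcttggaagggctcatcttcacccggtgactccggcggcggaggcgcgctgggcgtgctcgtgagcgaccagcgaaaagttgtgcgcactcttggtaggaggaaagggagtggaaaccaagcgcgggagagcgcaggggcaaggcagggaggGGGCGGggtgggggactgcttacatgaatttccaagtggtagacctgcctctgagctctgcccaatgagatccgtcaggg
Pcdh7: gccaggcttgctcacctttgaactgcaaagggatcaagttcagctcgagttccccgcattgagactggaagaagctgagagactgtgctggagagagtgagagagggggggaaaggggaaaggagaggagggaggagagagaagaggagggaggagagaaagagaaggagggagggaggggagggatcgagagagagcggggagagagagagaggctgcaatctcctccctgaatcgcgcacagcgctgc
Cdh8 held the complement of the GC box 80 bases before the start, and Pcdh7 held none of the 4 motifs. The 2 windows therefore shared no motif that was searched.

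Between E13.5 and E16.5, the ages with like cell number and amplification, 9 of 93 members rose, beside 3.76% of all genes, and none fell, beside 2.26%. On the deposited scale 49 members were higher at E16.5 in both populations and 6 were lower in both, beside 27.4% and 24.5% of all genes. On the CPM scale these counts were 62 and 6, beside 32.3% and 22% of all genes. Of the 62, 15 were alpha and 11 gamma rows, whose values are not independent. By class, the median fitted log2 change (E16.5 minus E13.5) was 0.24 over the Cdh genes, 0.32 over the non-clustered protocadherins, 0.97 over alpha, 2.45 over beta and 0.32 over gamma genes, beside 0.00 over all genes tested. With column-total scaling these medians were 0.14, 0.15, 1.08, 1.41 and 0.43 in the same order, beside 0.04 over all genes. This setting added 1 to the CPM instead of to the deposited value, so it changed more than the scale. At an unadjusted p below 0.05 there were 40 of 93 members, beside 21.6% of all genes. They included all 15 alpha genes, which are not separate measurements as described below.

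Cdh12 and Cdh13 rose. Cdh12, a type II cadherin of the nervous system, measured 6.27 CPM in IPN and 1.43 CPM in non-IPN at E13.5, and 66.2 and 60.1 CPM at E16.5. Both populations therefore reached similar levels from unequal starts. The rise was 4.24 ± 0.64 (SE, log2, adjusted p = 0.00645). The E15.5 libraries held 11.2 CPM in IPN and 2.04 CPM in non-IPN, and IPN were higher in every pair, without a population call (adjusted p = 0.147). Cdh13, with the values given above, rose by 4.24 ± 0.84 (SE, log2, adjusted p = 0.0175). Its log2 change was 2.23 in IPN and 6.26 in non-IPN, where it starts from the single unit at E13.5. No non-clustered protocadherin was called for age, and 5 of 12 had an unadjusted p below 0.05, beside the same 21.6% of all genes. Among these 5, Pcdh7 changed by 2.30 ± 0.60 (SE, log2, adjusted p = 0.0541), Pcdh8 by 1.34 ± 0.38 (adjusted p = 0.0706) and Pcdh9 by 1.29 ± 0.39 (adjusted p = 0.0809).

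The Cdh12 promoter window is shown because its rise was the one member call kept when the 4 amplified libraries were fitted alone. It lies at chr15:21111202-21111451 on the plus strand of GRCm38.p6, with the same motifs in capitals.
Cdh12: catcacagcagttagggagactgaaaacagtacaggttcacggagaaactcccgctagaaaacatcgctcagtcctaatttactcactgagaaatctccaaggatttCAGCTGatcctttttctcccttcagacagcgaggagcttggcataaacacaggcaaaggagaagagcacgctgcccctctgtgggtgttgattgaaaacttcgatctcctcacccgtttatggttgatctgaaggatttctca
It held 1 CAGCTG E-box, 143 bases before the start, and no GC box. Its GC content was 46.8%, beside 69.2% for Pcdh19 and a median of 52.4% over all promoter windows. As for Pcdh19, the 50 bases after the RefSeq start were found unbroken in no GENCODE M21 transcript of Cdh12.

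Beta protocadherins, which are single-exon genes, supplied the other 7 of the 9 rises. Pcdhb16 measured 6.46 CPM in IPN and 2.15 CPM in non-IPN at E13.5, and 40.5 and 19.5 CPM at E16.5. Pcdhb20 went from 3.23 to 16.7 CPM in IPN and from 1.43 to 38.9 CPM in non-IPN. Pcdhb18 went from 2.91 to 20.4 CPM in IPN and from 2.15 to 27.3 CPM in non-IPN. In each of the 7 genes both E13.5 values lay below both E16.5 values. The genes were called on these same values, so this order is no separate support. Pcdhb19 went from 0.970 to 16.9 CPM in IPN and from 2.50 to 15.1 CPM in non-IPN. Pcdhb22 went from 1.36 to 8.69 CPM in IPN and from 1.64 to 12.6 CPM in non-IPN. Pcdhb9 went from 0.646 to 6.16 CPM in IPN and from 0.143 to 17.5 CPM in non-IPN. Of these 3, Pcdhb9 started at 10 deposited units or less in both populations, so its fitted change rests on few units. Pcdhb21 went from 0 to 2.74 CPM in IPN and from 0.0715 to 9.93 CPM in non-IPN, and is listed at 0 at the first age.

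The fitted rises ran from 2.64 ± 0.66 (SE, log2, adjusted p = 0.0429) for Pcdhb22 to 5.67 ± 0.95 (adjusted p = 0.00974) for Pcdhb21. Those between them were 2.77 for Pcdhb16, 3.09 for Pcdhb18, 3.18 for Pcdhb19, 3.41 for Pcdhb20 and 4.63 for Pcdhb9. The Pcdhb22 call was kept under none of its 10 alternatives, whose lowest adjusted p was 0.0506. Across the whole cluster, 19 of 22 beta genes were higher at E16.5 in both populations on the deposited scale and 20 on the CPM scale. The summed beta level went from 67.5 to 208 CPM in IPN and from 31.3 to 254 CPM in non-IPN. The unamplified E15.5 libraries held 145 CPM in IPN and 204 CPM in non-IPN. Leaving out any 1 of the 4 amplified libraries ended all 9 calls, as it did those of all other genes. Column-total scaling, with 1 added to the CPM, kept Cdh12 alone.

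**Figure D3:**
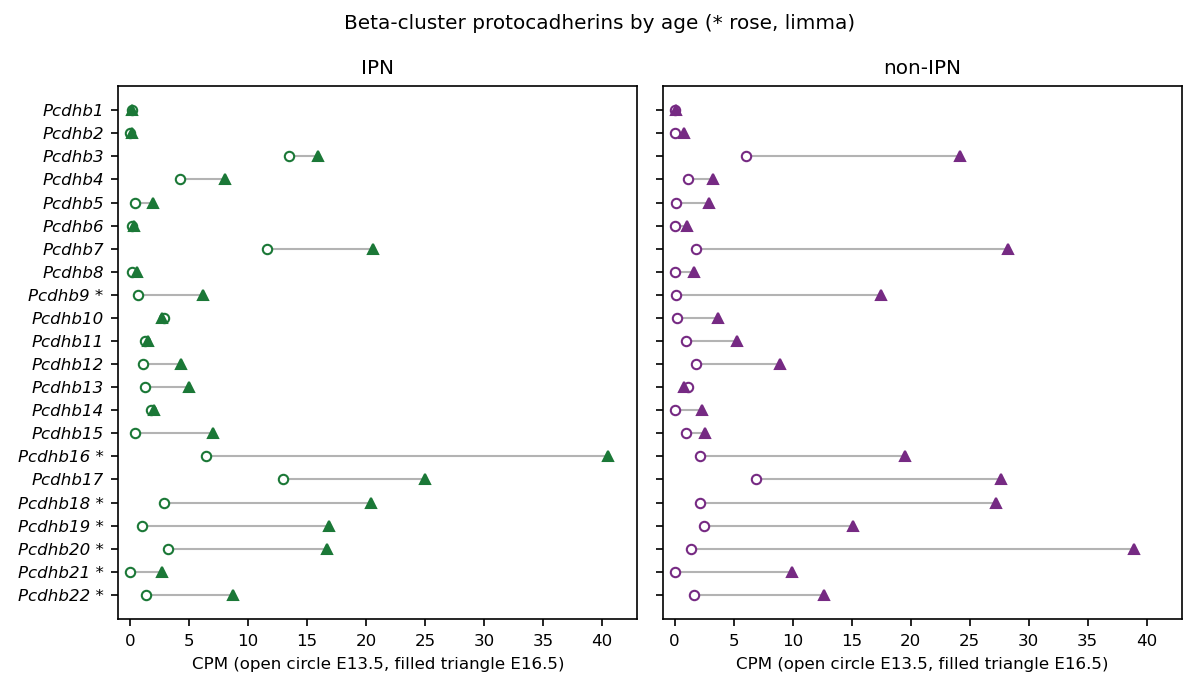
CPM of the 22 beta protocadherins at E13.5 (open circles) and E16.5 (filled triangles) in IPN and in non-IPN, with asterisks on the 7 genes that rose. In IPN the summed level went from 67.5 to 208 CPM and in non-IPN from 31.3 to 254 CPM.

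No beta gene was called between the populations, and none had an unadjusted p below 0.05 in limma. In the E13.5 pair 16 of 22 were higher in IPN as deposited, and in the E15.5 pair 2 of 22, with medians of the log2 ratio of 1.13 and −0.47. At E16.5 there were 8 of 22, with a median of −0.28. Over all 19561 genes tested, 8168, 7174 and 9330 were higher in IPN in order of age. The higher population thus differed between pairs for much of the cluster, while Pcdhb12, Pcdhb21 and Pcdhb22 were lower in IPN in all 3 pairs. The E15.5 pair was unamplified, so its part in this cannot be told apart from amplification. Some E13.5 values were few units, such as 6 in IPN and 2 in non-IPN for Pcdhb5. Pcdhb14 measured 1.81, 3.23 and 2.05 CPM in IPN and 0, 4.62 and 2.30 CPM in non-IPN. Pcdhb4 measured 4.27, 5.26 and 8.07 CPM in IPN and 1.14, 8.13 and 3.26 CPM in non-IPN. Both had higher values in non-IPN at E15.5 and higher values in IPN at E13.5. Pcdhb13 measured 1.23, 2.52 and 4.99 CPM in IPN and 1.14, 3.0 and 0.795 CPM in non-IPN. Pcdhb2 measured 0, 2.27 and 0.137 CPM in IPN and 0, 3.35 and 0.795 CPM in non-IPN. Pcdhb1 had no value above 0.137 CPM.

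Alpha and gamma rows carried almost 1 value per cluster and library. Among the 14 alpha genes other than Pcdha4-g, the highest value exceeded the lowest by 0.942 to 2.22% in the 4 amplified libraries. At E15.5 it exceeded the lowest by 10.9% in IPN and 14.9% in non-IPN, with Pcdhac2 the highest in both. Gamma genes spread by 6.21 to 14.0% in the amplified libraries and by 41.7 and 37.4% at E15.5. In transcripts of GENCODE M21, a median of 59.5% of the 50-base words of each of 13 alpha genes and 44.8% of each of 22 gamma genes were shared with another member, beside 4.27% of each beta gene and 0 for Cdh genes and non-clustered protocadherins. Values of single alpha and gamma isoforms are therefore uncertain, and the isoforms are not independent measurements.

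**Figure D4:**
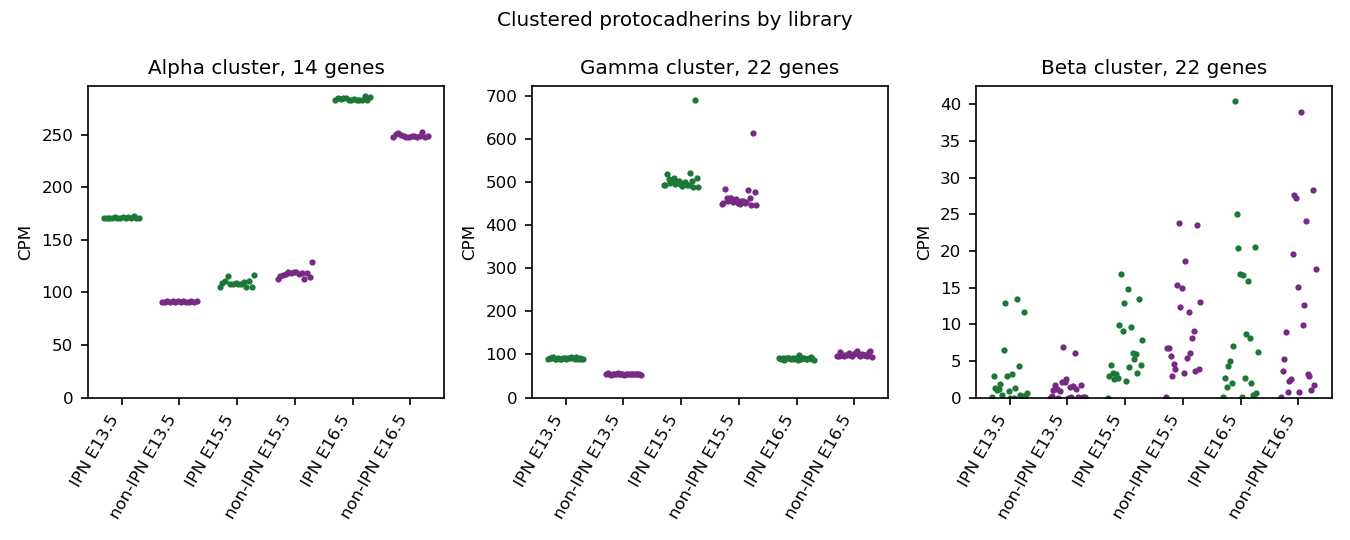
CPM of each gene of the alpha cluster (without Pcdha4-g), the gamma cluster and the beta cluster in the 6 libraries, 1 point per gene. Alpha and gamma genes form flat lines within a library apart from Pcdhgc3 at E15.5, whereas beta genes scatter from 0 to 40.5 CPM.

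As 1 quantity each, the median alpha level was 171, 109 and 283 CPM in IPN in order of age and 91.3, 118 and 249 CPM in non-IPN. IPN were higher at E13.5 and E16.5 and lower at E15.5. The median gamma level was 90.8, 498 and 91.0 CPM in IPN and 54.2, 456 and 99.3 CPM in non-IPN. Gamma was thus higher in IPN at the first 2 ages, and at E16.5 the sign depended on the scale (1330 against 1249 as deposited). The gamma median was over 4 times as high at E15.5 as in any amplified library, and the alpha median was not, a contrast that cannot be told apart from amplification. No alpha or gamma gene was called between populations or ages by limma. At an unadjusted p below 0.05 there were none between populations, and between ages all 15 alpha genes and no gamma gene, with a lowest adjusted p of 0.0845.

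What set isoforms apart was the excess over the lowest isoform of the cluster in the same library. The 8 clustered genes of highest mean CPM were Pcdhgc3, Pcdhga11, Pcdhgb6, Pcdhgc4, Pcdhga4, Pcdhgb1, Pcdhgb7 and Pcdhga12. Pcdhgc3, a C-type isoform known for broad expression, stood at 690 CPM in IPN and 613 CPM in non-IPN at E15.5. This was 203 and 167 CPM above the lowest gamma isoform. The next were Pcdhgb6 in IPN (32.9 CPM above) and Pcdhga11 in non-IPN (38.5 CPM above). In amplified libraries the excess of Pcdhgc3 was 1.5 to 9.93 CPM, with totals of 55.0 to 105 CPM. Over the 22 gamma isoforms, the Spearman correlation of this excess between the populations was 0.26, 0.96 and 0.32 in order of age. Over 14 alpha isoforms it was 0.07, 0.46 and 0.72. These correlations compare the populations within an age, and isoform orders were not compared between ages. At E13.5 the alpha excess was at most 30 deposited units in IPN and 12 in non-IPN, so a low correlation there cannot show that the orders differed. Excesses and correlations are descriptions over isoforms that share exons, annotation and sequencing depth, not corrected for length. Pcdha4-g, a separate row not matched in the annotation, measured 95.7 and 93.2 CPM at E15.5 and 0.711 to 5.17 CPM in the amplified libraries.

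Partner genes were grouped into lists by their textbook roles. Of 17 other cadherin superfamily genes tested, Fat4 and Clstn2 were called higher in IPN and none lower, beside 0.982% and 2.41% of all genes. With age 4 rose and 1 fell, beside 3.76% and 2.26% of all genes. Clstn2 (calsyntenin-2, a postsynaptic membrane protein) measured 25.7, 156 and 270 CPM in IPN and 8.22, 40.7 and 162 CPM in non-IPN. It was higher in IPN by 1.57 ± 0.27 (SE, log2, adjusted p = 0.00956) and rose by 3.72 ± 0.33 (adjusted p = 0.000953). Fat4, a giant cadherin that binds Dchs1, measured 213, 628 and 737 CPM in IPN and 128, 97.1 and 395 CPM in non-IPN. It was higher in IPN by 1.58 ± 0.32 (SE, log2, adjusted p = 0.0233) and rose by 1.59 ± 0.40 (adjusted p = 0.0431). Celsr3 and Fat3 rose, by 1.88 ± 0.40 and 1.60 ± 0.34, and Celsr1, a planar polarity cadherin of progenitors, fell by 1.55 on the log2 scale. The population difference rose with day for Fat1 alone (0.75 ± 0.17 per day, adjusted p = 0.0435), beside 0.624% of all genes. It fell for Dchs1 alone (−0.84 ± 0.16, adjusted p = 0.0181), beside 0.68% of all genes. Fat1 measured 43.9, 24.3 and 32.9 CPM in IPN and 194, 37.2 and 31.2 CPM in non-IPN, highest in non-IPN at E13.5. Dchs1 was lowest in that library, at 14.1 CPM. The part of the markers that moved there was not tested. Celsr2 and Clstn1 were the uncalled genes of highest mean, at 235 and 108 CPM.

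Of 12 catenins and cytoplasmic partners, none was called between populations by limma. At an unadjusted p below 0.05 there were 3, beside 13.6% of all genes, a share that also stands behind the unadjusted population counts of the lists that follow. With age, Ctnnd2 (delta-catenin) rose by 1.18 ± 0.29 (SE, log2, adjusted p = 0.0393), and Vcl (vinculin) fell by 1.80 on the log2 scale. Ctnnb1 (beta-catenin), which links cadherins to alpha-catenin, averaged 2437 CPM, and Ctnna2, the neuronal alpha-catenin, 405 CPM, and neither was called. Of 13 genes of the WAVE complex and protocadherin-binding kinases, Nckap1 rose (1.88 ± 0.36, adjusted p = 0.0157), and none was called between populations (3 at an unadjusted p below 0.05). Abi2 and Dab1 were the uncalled genes of highest mean, at 382 and 299 CPM. Of 15 regulators of clustered protocadherin promoters, Nipbl, the cohesin loader, rose (1.35 ± 0.25, adjusted p = 0.0148), and none was called between populations (1 at an unadjusted p below 0.05). Ctcf, which with cohesin loops enhancers to these promoters, was not called, at 106, 179 and 155 CPM in IPN and 133, 174 and 125 CPM in non-IPN. None of 8 cadherin-cleaving proteases or 6 nectin genes was called for population or age by limma. At an unadjusted p below 0.05 there were 0 and 1 genes between populations, and 3 and 0 between ages, beside 21.6% of all genes for age.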

How the data were processed

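The 6 deposited files paired gene symbols with whole numbers, treated as a signal that the authors had scaled from read counts, since upper quartiles were near-equal. The submitters' processing notes list TopHat 1.2.0, edgeR, SAMtools 0.1.18, CASAVA 1.9 and mm9. What each did, the read counter, and how it treated shared exons and strand are not given in the sources. Files were joined by symbol, and 3 symbols listed 2 times were dropped. A count model had been planned only for raw counts. With R 4.3.3, limma 3.58.1 (trend, robust) was fitted to log2(value + 1) over 19561 genes, which understates changes of low genes. Population was fitted with age as a factor (2 residual degrees of freedom), which pairs the populations of an age. Scripts were tested on simulated data. Named were all called members and, per class, up to 8 others by mean CPM and 4 by difference (mean of at least 1 CPM). Genes named in small counts, Ctcf and the lowest members were added after their values were seen. Fitted values are given only for members with an unadjusted p below 0.05 in that test, and not for all of these. Members and lists were chosen with earlier results of these data known. Nothing says that libraries came from separate litters, and p-values measure only the spread between these samples, which may be technical. Promoters came from the RefSeq table (GRCm38.p6, windows of 22 members used, none on chromosome 18) and lengths from GENCODE M21 (92 of 94 members), neither of the authors' build.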

Additional observations from a re-analysis of the deposited data

Results flagged for a closer look

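The IPN minus non-IPN difference of 3 members differed between ages by a test of the change itself, the population by day term in limma. It was −1.05 log2 units per day for Cdh11, −0.99 for Pcdh7 and −0.89 for Cdh8. In each gene the non-IPN library of E13.5 was the lowest of the 6. The part of the marker genes that moved in that library was not tested.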

How the results depend on the processing

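Members called between populations numbered 2. There was 1 with a pseudocount of 4, with a minimum mean of 10 CPM, with column-total scaling and with median-of-ratios scaling, Pcdh19 each time. There were 0 without a filter and 0 without trend and robust options. At an unadjusted p below 0.05 in limma these fits had 7 and 6 of 93 members, beside 2135 and 1946 genes. There were also 0 without the age term, which gives no replicate block. That fit had 1 member beside 676 genes at an unadjusted p below 0.05. Leaving out 1 pair gave 0 to 3. The 9 members that rose with age became 1 with column-total scaling and 1 in the amplified libraries alone. Over all genes, 1178 age calls became 244 and 97 under these settings. Without a filter or without trend and robust options there were 0 members called. At an unadjusted p below 0.05 in limma these fits had 31 and 19 of 93 members, beside 4020 and 3414 genes. Leaving out 1 library leaves 1 library at that age, so unadjusted counts of these fits are not given. The 3 members of the population by day term became 6 with column-total scaling and 11 with median-of-ratios scaling. Over all genes, 255 calls became 906 and 1558 under these scalings. Without a filter or without trend and robust options there were 0 members called. At an unadjusted p below 0.05 in limma these fits had 18 and 16 of 93 members, beside 2237 and 2321 genes. No pair could be left out there. Calls without a filter, without trend and robust options or with 1 amplified library left out were 0 over all genes for each term where these were run. The cause of the other changes was not tested. Column-total scaling also added 1 to the CPM instead of to the deposited value, and the parts of the scale and of the added 1 were not separated. Directions of fitted values given for members were the same under every alternative run. Pcdh19 kept its population call under 6 of 10 alternatives, with fitted values from −2.42 to −1.71. With column totals the median age change over genes of at least 10 CPM went from 0.05 to 0.16. The median population difference over these genes went from 0.09 to −0.05. The true depth is unknown, so no counting error is given, and low members near 0 CPM cannot be ranked.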
